A study of Mus musculus with 12 samples.

Results

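Hepatocytes keep their identity through a small set of transcription factors, and the 9 described here were chosen by name from that set: Hnf4a, Foxa1, Foxa2, Foxa3, Cebpa, Prox1, Nr5a2, Nr1h3 and Ppara. They are 9 of the 13267 genes in a table of liver messenger RNA levels, found by matching the table's Ensembl transcript IDs to GENCODE M21 gene symbols. All 9 were matched and all 9 passed the filter on low values. The 12 liver samples, called livers here, came from C57BL/6 mice with obesity and hepatic steatosis (fat-laden liver cells) induced by a high-fat diet. In 6 of them, the controls, a scaffold pellet without the compound lay under the skin for 6 weeks. In the other 6 the subcutaneous treatment was 4-hydroxyphenylacetic acid (4-HPAA), a phenolic acid that gut bacteria make, also for 6 weeks. No age, sex or dose is given in the sources used here. All 12 samples shared the strain, the diet and the steatosis, so there is no lean or chow-fed reference.

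HNF4A is a nuclear receptor that binds the regulatory regions of a large share of liver-specific genes, among them those of apolipoproteins and clotting factors. The FOXA proteins are pioneer factors, which open compacted chromatin so that other factors can bind, and C/EBPα drives genes of gluconeogenesis, the urea cycle and plasma proteins. PROX1, NR5A2 (LRH-1), LXRα (encoded by Nr1h3) and PPARα tie this program to bile acid, sterol and fatty acid metabolism. These factors bind each other's genes as well as shared targets, and loss of HNF4A or C/EBPα in the mouse liver is known to disturb hepatocyte function.

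The start regions of these genes are shown first because the table has 1 row per factor, under a single transcript ID. Whether a row counts that transcript or the whole gene is not stated in these sources. The start sites that a gene uses thus cannot be told apart here. RefSeq promoter windows (GRCm38.p6) were found for 9 of 9 factors, 15 windows in all, of which the 250 bases before each start site were searched. For Hnf4a there were 2 windows, whose start sites lie 40298 bases apart on chromosome 2. The downstream one is the promoter used in adult liver and the upstream one is known from fetal liver and pancreas. The transcript ID listed for Hnf4a lies at the upstream start, but whether its single row also counts products of the downstream promoter is not stated. Bases inside exons of the gene itself were left out of all printed sequences, which read 5′ to 3′ on the strand of the gene.
Hnf4a, upstream start, chr2:163506607-163506807, plus strand: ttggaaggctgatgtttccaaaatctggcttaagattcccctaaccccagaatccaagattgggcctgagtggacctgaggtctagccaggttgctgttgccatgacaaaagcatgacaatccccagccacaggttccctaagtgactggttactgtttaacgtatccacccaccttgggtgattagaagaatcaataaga
Hnf4a, downstream start, chr2:163546943-163547154, plus strand: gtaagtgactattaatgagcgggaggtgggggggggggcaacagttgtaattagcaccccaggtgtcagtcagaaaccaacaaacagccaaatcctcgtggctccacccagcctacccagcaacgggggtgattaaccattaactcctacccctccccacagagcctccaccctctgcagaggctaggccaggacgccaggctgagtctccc

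Binding motifs of the factors themselves were searched by exact letters on both strands of all 15 windows, since these factors are known to act on each other's genes. The 6 motifs were AGGTCA (the core site of many nuclear receptors), CAAGGTCA (the NR5A site, which contains AGGTCA), CAAAGTCCA (an HNF4 site), TGTTTAC and TGTTTGC (forkhead sites) and TTGCGCAA (a C/EBP site). Among 32851 promoter windows of the same length, 14.0% held AGGTCA, 1.33% CAAGGTCA, 0.384% CAAAGTCCA, 3.17% TGTTTAC, 4.3% TGTTTGC and 0.164% TTGCGCAA. Matches stood in 3 of the 15 windows, and capitals mark them in the sequences that follow. The Foxa1 window held the forkhead site TGTTTAC on the opposite strand, 141 to 135 bases before the start. One of the 2 Prox1 windows held TGTTTGC, 120 to 114 bases before its start, and one of the 2 Nr5a2 windows held AGGTCA, 64 to 59 bases before its start. A match describes the letters only.
Foxa1, chr12:57546122-57546361, minus strand: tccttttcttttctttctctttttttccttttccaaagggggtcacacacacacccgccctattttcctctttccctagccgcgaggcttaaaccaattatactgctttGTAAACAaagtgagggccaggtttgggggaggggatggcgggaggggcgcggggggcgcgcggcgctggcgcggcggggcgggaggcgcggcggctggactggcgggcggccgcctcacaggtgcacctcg
Prox1, downstream start, chr1:190169516-190169765, minus strand: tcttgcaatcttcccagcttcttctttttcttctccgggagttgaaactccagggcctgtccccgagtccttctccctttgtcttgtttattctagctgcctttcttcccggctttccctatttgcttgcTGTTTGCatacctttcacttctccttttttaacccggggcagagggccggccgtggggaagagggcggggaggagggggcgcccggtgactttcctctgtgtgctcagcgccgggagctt
Nr5a2, upstream start, chr1:136960449-136960698, minus strand: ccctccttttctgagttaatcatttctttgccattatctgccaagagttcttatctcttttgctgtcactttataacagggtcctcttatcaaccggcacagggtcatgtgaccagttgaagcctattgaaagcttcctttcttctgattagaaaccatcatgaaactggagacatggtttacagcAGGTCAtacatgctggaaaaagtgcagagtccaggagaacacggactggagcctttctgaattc

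The values are the authors' normalised read counts, which summed to between 22869813 and 25255447 per library. The reads behind them, estimated from the scaling that the values show, were 24342992 to 26924668 in controls (median 25861447) and 22389551 to 25919336 with 4-HPAA (median 24291454). The labels give 6 numbered samples per group and do not say that each is a separate mouse, so the p-values here speak of the spread among these 12 samples, which may be technical. 4-HPAA replicate 3 stood apart in base composition: its GC-rich genes (the fifth with the highest GC content) stood 0.81 log2 units higher against its GC-poor genes than in the control mean, where all other libraries lay between −0.18 and 0.19. Differences of factors and list medians that it moved by over 1.5 times are given with and without it. Hepatocyte markers were high in all 12 livers, as summed levels of 3062969 to 3772680 in controls and 3013829 to 3508712 with 4-HPAA.

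No factor differed between the groups beyond its spread. With limma over all 12720 genes tested, 0 of the 9 passed a Benjamini-Hochberg adjusted p of 0.05, as did 0% of all genes, and 0 had an unadjusted p under 0.05, against 14.8% of all genes. The 2 groups overlapped for all 9 factors, while 0.66% of all genes had groups that did not overlap. The differences (4-HPAA minus control, on the log2(value + 1) scale) were positive for 7 factors and negative for Foxa2 and Ppara, with a median of 0.11 against −0.0009 over all genes, of which 49.8% were positive and 50.2% negative. With each library divided by its total without the 100 genes of highest mean, Cebpa and Nr5a2 turned negative, at −0.006 and −0.008. In size the main differences ran from 0.03 to 0.23 with a median of 0.16, and the median size over all genes was 0.13. With array weights, which count outlying libraries for less, limma gave differences of 0.27 for Hnf4a (unadjusted p = 0.0343, adjusted p = 0.174), 0.32 for Foxa1 (unadjusted p = 0.0234, adjusted p = 0.144) and 0.37 for Foxa3 (unadjusted p = 0.0157, adjusted p = 0.121). A size above 0.25 was reached by 24.9% of all genes and by 0 factors. The 95% intervals reached from 0.61-fold, the lower bound for Foxa2, to 1.52-fold, the upper bound for Foxa1. A larger difference than these bounds in either direction lay outside the interval of every factor.

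**Figure D1:**
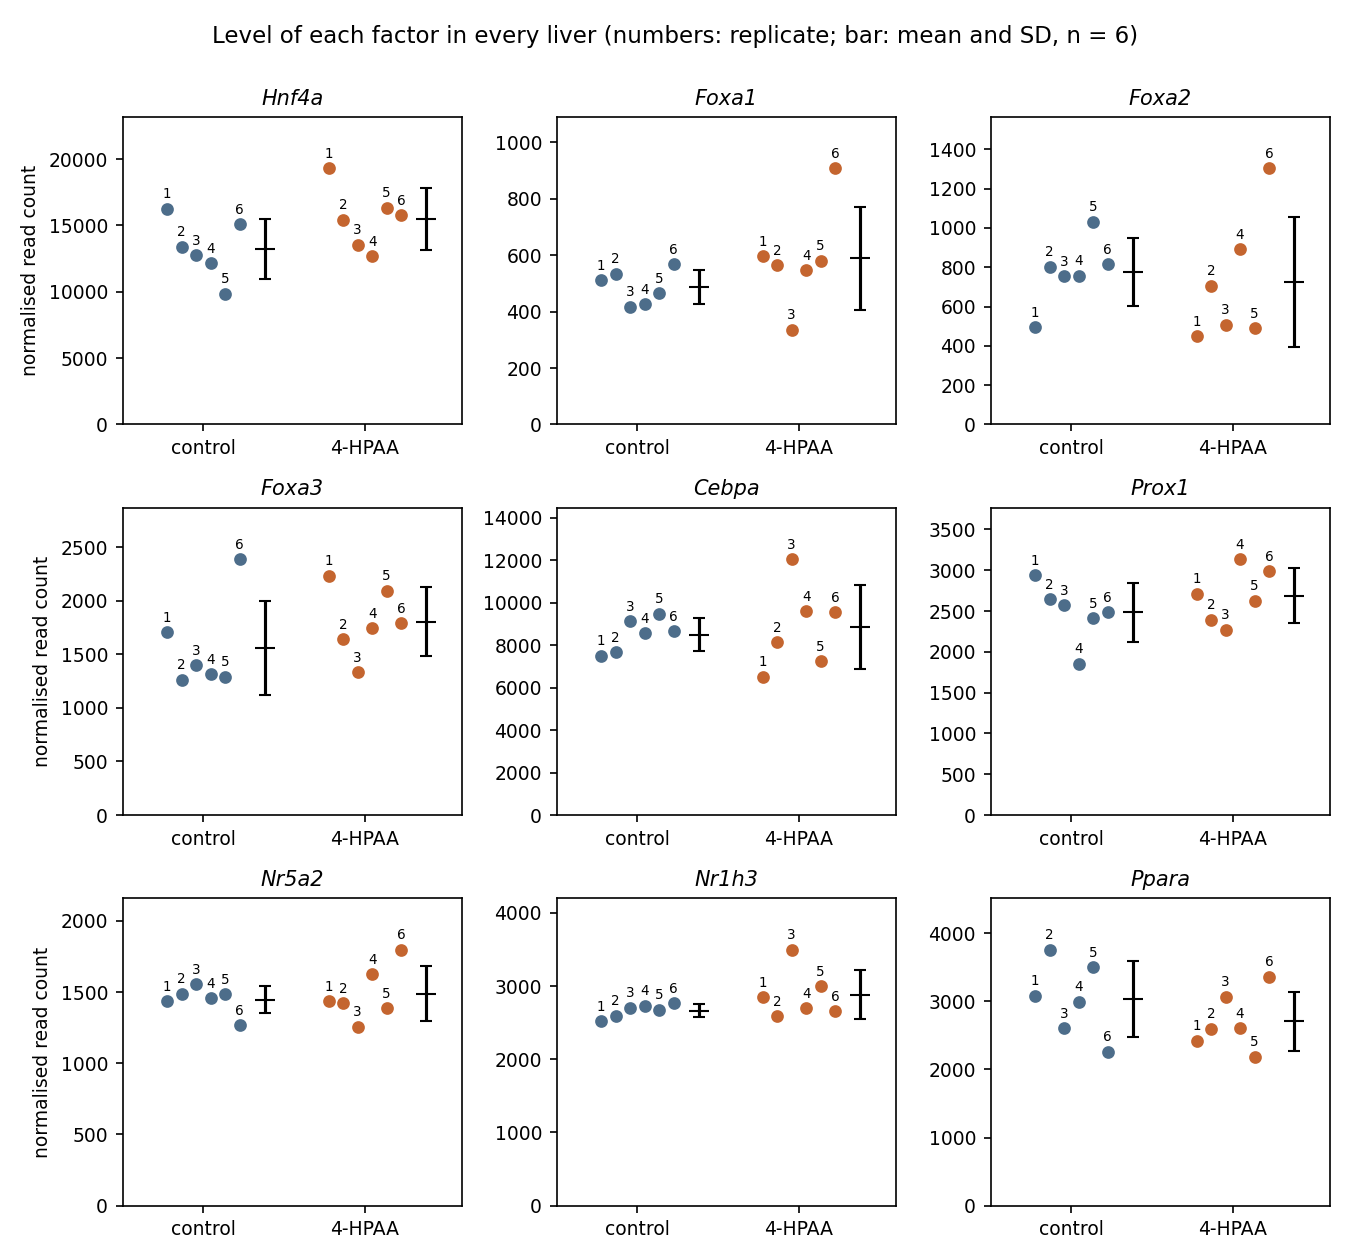
Normalised read counts of the 9 factors in each liver (y axis, from 0; numbers are replicates), with the mean and SD of each group (n = 6) beside the points. The groups overlap in every panel, and 4-HPAA replicates 3 and 6 hold the highest or lowest value of several factors.

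**Figure D2:**
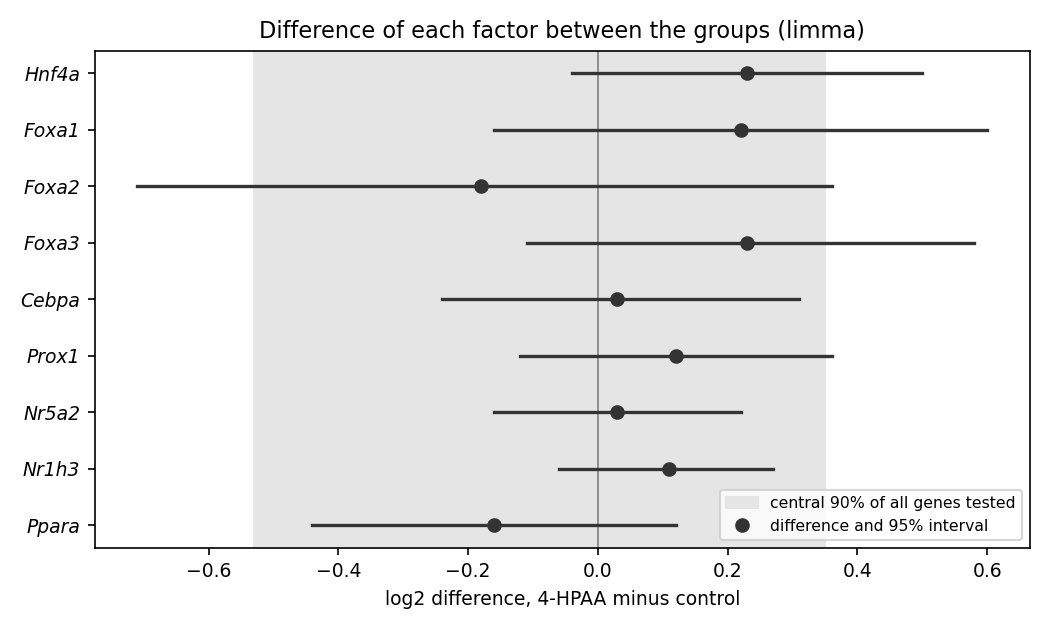
Log2 difference (4-HPAA minus control) of each factor with its 95% interval from limma, over a grey band for the central 90% of all genes tested, −0.53 to 0.35. Every interval spans 0, and Foxa2 has the widest, −0.71 to 0.36.

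Hnf4a was the factor with the smallest p. Its value ran from 9853 through a median of 13073.5 to 16253 in controls, and from 12664 through 15594.5 to 19296 with 4-HPAA. The lowest liver was control replicate 5 and the highest 4-HPAA replicate 1, and 4 of the 6 treated livers lay within the control range. The means were 13250.7 ± 2260 and 15502.0 ± 2330 (SD, n = 6), a log2 difference of 0.23 ± 0.13 (SE) with a 95% interval of −0.04 to 0.50. Limma gave an unadjusted p of 0.0855 and an adjusted p of 0.408. The exact permutation test over the 12 livers gave p = 0.113 (two-sided, 924 splits, smallest possible p 0.00216). With 1 library left out the difference ran from 0.15 (without control replicate 5) to 0.29. The unadjusted p went below 0.05 without control replicate 1 (limma, 0.29, adjusted p = 0.297) and without 4-HPAA replicate 4 (limma, 0.29, adjusted p = 0.238), as it did with array weights, and the adjusted p did not pass in any alternative, from 0.174 to 0.67. Hnf4a also moved with the depth of the library, as described further on.

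The 3 FOXA genes, whose proteins share a forkhead DNA-binding domain, had differences of both signs. Foxa1 ran from 418 through 489 to 568 in controls and from 336 through 572.5 to 908 with 4-HPAA. Both ends of the treated range lay outside the control range, in replicates 3 and 6, and only 2 treated livers were inside it. This gave a log2 difference of 0.22 ± 0.18 (limma, unadjusted p = 0.23, adjusted p = 0.592). It was 0.37 without 4-HPAA replicate 3 (limma, unadjusted p = 0.0119, adjusted p = 0.168) and 0.086 without 4-HPAA replicate 6.

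Foxa2, which in liver also serves bile acid and fasting metabolism, ran from 496 through 780.0 to 1031 in controls and from 450 through 607.0 to 1303 with 4-HPAA. Replicate 6 was the highest of all treated livers, and replicates 1, 3 and 5 lay close together at 450, 507 and 491. This was the widest spread of the 9 factors, 2.90-fold from the lowest to the highest liver. The log2 difference was −0.18 ± 0.25 (limma, adjusted p = 0.79), and −0.37 without 4-HPAA replicate 6 (adjusted p = 0.375) or −0.30 without control replicate 1. It shrank to −0.060 without 4-HPAA replicate 1, −0.085 without replicate 5 and −0.094 without replicate 3 of that group, and to −0.087 without control replicate 5.

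Foxa3 is the FOXA gene with the highest level per length in these livers by the union of its exons. It ran from 1261 through 1355.0 to 2388 in controls and from 1334 through 1764.5 to 2231 with 4-HPAA. Control replicate 6 stood far above the other 5 controls, which reached 1705 at most, and all 6 treated livers lay within the control range that it sets. The log2 difference was 0.23 ± 0.16 (limma, adjusted p = 0.536). Without control replicate 6 it was 0.36 (limma, unadjusted p = 0.0136, adjusted p = 0.202).

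Cebpa had nearly equal means and unequal spreads. Its value ran from 7499 through 8603.5 to 9478 in controls and from 6527 through 8852.5 to 12063 with 4-HPAA. The treated livers enclosed the control range on both sides, with replicate 3 the highest and replicate 1 the lowest, and only 1 of 6 lay inside it. The log2 SD was 0.13 in controls and 0.32 with 4-HPAA. The log2 difference was 0.03 ± 0.13 with a 95% interval of −0.24 to 0.31 (limma, adjusted p = 0.926), and it was −0.060 without 4-HPAA replicate 3.

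Prox1, a homeobox factor that restrains HNF4A and NR5A2 activity and also marks lymphatic endothelium, ran from 1854 through 2527.5 to 2939 in controls and from 2274 through 2670.0 to 3138 with 4-HPAA. Control replicate 4 was the lowest liver and 4-HPAA replicate 4 the highest, and 4 treated livers lay within the control range. Prox1 thus differed by 0.12 ± 0.11 on the log2 scale (limma, adjusted p = 0.656), by 0.037 without control replicate 4 and by 0.072 without 4-HPAA replicate 4. Of 10 listed lymphatic endothelial markers, 8 were tested and 8 were lower in the mean with 4-HPAA (median −0.61), as were 50.2% of all genes. Ccl21a and Mmrn1 were not tested. The summed level was 2532 to 3142 in controls and 1710 to 2744 with 4-HPAA. Much of that sum is Reln, also listed as a stellate cell marker, which averaged 1434 in controls and 934.8 with 4-HPAA. Lyve1 also stands in the list of sinusoidal and vascular endothelial markers. The part of lymphatic endothelial cells in the Prox1 value was not tested. Prox1 shares 133 exon bases with Prox1os on the opposite strand, which had values of 166 to 303, and the use of strand in counting is not stated in these sources.

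Nr5a2 encodes a receptor that controls bile acid and cholesterol genes. It ran from 1266 through 1471.0 to 1554 in controls and from 1258 through 1429.0 to 1798 with 4-HPAA. The treated livers lay on both sides of the controls, with replicate 6 the highest and replicate 3 the lowest of all 12. The log2 difference of 0.03 ± 0.09 had a 95% interval of −0.16 to 0.22 (limma, adjusted p = 0.897). It was −0.024 without 4-HPAA replicate 6 and 0.079 without 4-HPAA replicate 3 (limma, adjusted p = 0.599 for the latter).

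Nr1h3, whose product LXRα responds to oxysterols and switches on lipogenic and cholesterol efflux genes, had the tightest controls. They ran from 2516 through 2688.0 to 2763, and the treated livers from 2589 through 2773.5 to 3497. The control log2 SD was 0.05, a value that only 1.49% of all genes equalled or went under, and the treated SD was 0.16. The treated spread came mostly from replicate 3, at 3497, with the other 5 livers at 2589 to 2996. On the log2 scale the difference was 0.11 ± 0.08 (limma, adjusted p = 0.551) and 0.049 without 4-HPAA replicate 3 (adjusted p = 0.663). Macrophages also express Nr1h3. Of 15 Kupffer cell and macrophage markers 4 were higher and 11 lower with 4-HPAA (median −0.06), where 50.2% of all genes were lower. The summed level of these markers ran from 3465 to 13073 in controls and from 4969 to 8034 with 4-HPAA. The part of these cells in the Nr1h3 value was not tested. Fewer cells of a type and less RNA per cell cannot be told apart in whole liver.

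Ppara, the receptor for fatty acid ligands that drives fatty acid oxidation and ketogenesis, ran from 2258 through 3039.5 to 3760 in controls and from 2187 through 2604.5 to 3365 with 4-HPAA. Control replicate 6 and 4-HPAA replicate 5 were the lowest, control replicate 2 the highest, and 5 treated livers lay within the control range. The log2 difference was −0.16 ± 0.13 with a 95% interval of −0.44 to 0.12 (limma, adjusted p = 0.614). This interval covers both no difference and a level 0.74 times that of controls. The difference was −0.091 without control replicate 2, −0.099 without 4-HPAA replicate 5 and −0.27 with array weights (limma, unadjusted p = 0.0512, adjusted p = 0.21).

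Spread among the treated livers was larger for part of the factors. The log2 SD was higher with 4-HPAA for 5 of the 9 (Foxa1, Foxa2, Cebpa, Nr5a2 and Nr1h3), as it was for 68.9% of all genes. The median ratio of the treated to the control SD was 1.74 over the factors and 1.32 over all genes. The ratio was highest for Nr1h3, at 3.17, and lowest for Foxa3, at 0.74. Replicate 3 or replicate 6 of the 4-HPAA group held the highest treated value for all of the 5 with a larger treated SD. Replicate 6 also held it for Ppara, whose SD ratio was 0.83. The share of all genes with their highest treated value in these replicates was not computed.

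Levels can be compared between factors only per length, here as the normalised count per 1000 bases of length and per 1000000 of the library total. By the union of each gene's exons, Cebpa had a control mean of 133 ± 16.5 (SD, n = 6) and Hnf4a 112 ± 16.2, and their ranges overlapped. Nr1h3 followed at 43.4 ± 2.68, with no overlap with Hnf4a, then Ppara at 32.4 ± 6.21 and Foxa3 at 31.3 ± 8.62. These 3 overlapped: the ranges were 39.6 to 46.5 for Nr1h3, 24.1 to 39.9 for Ppara and 24.6 to 48.0 for Foxa3. Foxa2 at 13.5 ± 3.42, Prox1 at 12.1 ± 1.54 and Nr5a2 at 10.1 ± 0.79 formed a lower step, each overlapping the next and none reaching Foxa3. Foxa1 was the lowest at 6.0 ± 0.693. By the length of the single transcript that the table lists, which is only 431 bases for Hnf4a, 574 for Nr1h3 and 865 for Foxa2, the control means were 1260 for Hnf4a, 190 for Nr1h3, 162 for Cebpa, 60.3 for Ppara and 37.0 for Foxa2. The order of the upper 6 thus depends on the length used, while Prox1, Nr5a2 and Foxa1 were the lowest by both. Levels by the exon union take each row as a count over the whole gene, which these sources do not state.

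The 9 factors did not vary as a block from liver to liver. Pearson's r was computed for all 36 pairs over the 12 livers after each group's mean was removed, and 0 pairs passed an adjusted p of 0.05 (permutation test, 100000 shuffles within groups). The pair with the smallest p was Hnf4a with Cebpa, which ran in opposite directions (r = −0.71, rho = −0.79, permutation p = 0.00541, adjusted p = 0.195). Its r was −0.74 in controls, −0.82 with 4-HPAA and −0.63 without control replicate 5 and 4-HPAA replicate 1, the 2 livers farthest out in Hnf4a. Foxa3 and Ppara were also opposed (r = −0.72, rho = −0.65, permutation p = 0.0143, adjusted p = 0.257), with r = −0.51 without the 2 farthest livers. Hnf4a and Foxa3 went together (r = 0.70, rho = 0.76, permutation p = 0.0222, adjusted p = 0.267), with r = 0.65 without the 2 farthest. Foxa2 and Nr5a2 had r = 0.68 (rho = 0.52, permutation p = 0.0348, adjusted p = 0.282), and 0.54 without the 2 farthest. Their r was 0.04 in controls and 0.88 with 4-HPAA, and that difference was not tested. Foxa1 and Nr1h3, at r = −0.72, were at −0.04 without 4-HPAA replicates 3 and 6 (rho = −0.41 and permutation p = 0.0824 over all 12).

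**Figure D3:**
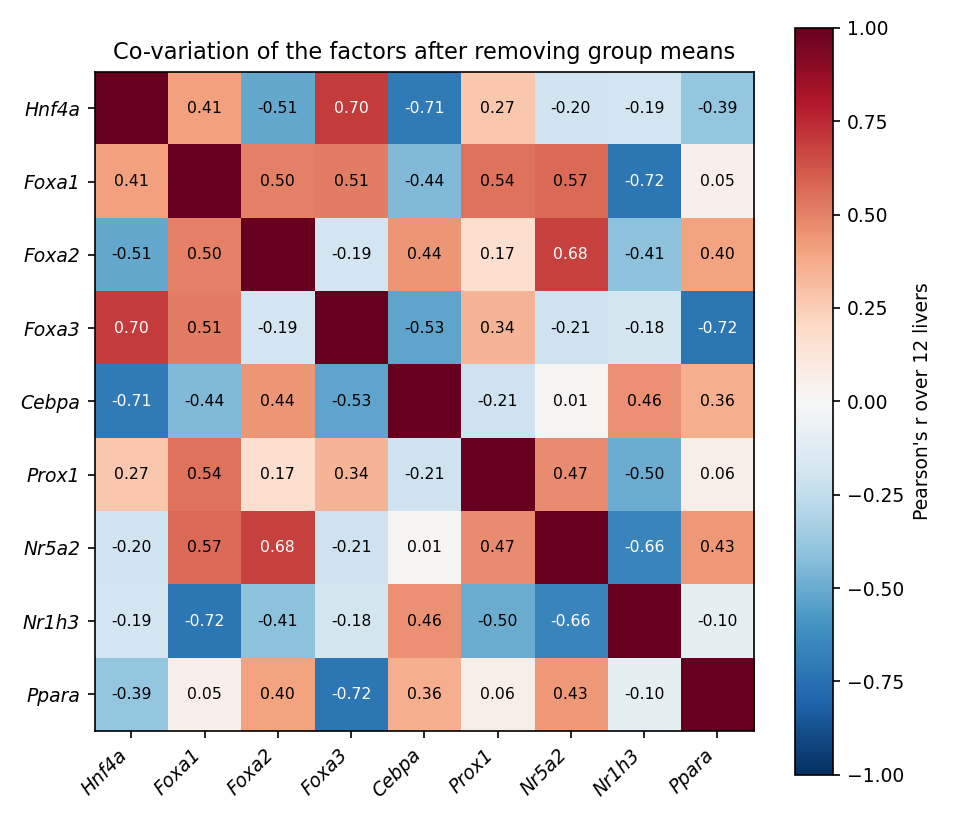
Pearson's r between the factors over 12 livers after removal of the group means (both axes list the factors; red is positive, blue negative). The cells of largest size are Foxa1 with Nr1h3 and Foxa3 with Ppara, both −0.72, Hnf4a with Cebpa, −0.71, and Hnf4a with Foxa3, 0.70.

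Depth moved with 4 of these factors by r and with 3 by rho. Over the 12 livers, with group means removed, the estimated reads of a library had r = −0.80 with Hnf4a (rho = −0.76, permutation p = 0.00205, adjusted p = 0.0154 over 15 relations) and r = −0.79 with Foxa3 (rho = −0.73, permutation p = 0.00163, adjusted p = 0.0154). The relation was positive for Cebpa (r = 0.82, rho = 0.80, permutation p = 0.00483, adjusted p = 0.0198) and for Ppara (r = 0.67, rho = 0.68, permutation p = 0.0204, adjusted p = 0.0438). For rho the permutation test gave an adjusted p of 0.0358 for Hnf4a, Foxa3 and Cebpa and of 0.053 for Ppara. Without the 2 farthest livers r was −0.69 for Hnf4a, −0.64 for Foxa3, 0.57 for Cebpa and 0.63 for Ppara. The 5 other factors did not pass, with r from −0.38 for Foxa1 to 0.40 for Foxa2, but for Nr5a2 r was 0.24 over all livers and 0.72 without the 2 farthest. The 3 shallowest libraries were 4-HPAA replicates 1, 2 and 5, so depth also differed between the groups. The part of depth in the Hnf4a and Foxa3 differences, and in the pairs that these 4 factors form, was not tested.

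GC content of the library moved with Foxa1 (r = −0.83, rho = −0.61, permutation p = 0.00281, adjusted p = 0.0253 over 9 relations, and 0.1 for rho), with r = −0.53 without 4-HPAA replicate 3. Foxa1 transcripts have 60.6% GC, at or above that of 97.2% of genes, yet Foxa1 was lower where GC-rich genes stood higher. For Foxa3, at 54.4% GC, r was −0.58 (rho = −0.65, permutation p = 0.0249, adjusted p = 0.0747, and 0.1 for rho), and −0.44 without 4-HPAA replicate 3. For Nr1h3, at 57.0% GC, r was 0.87 (rho = 0.66, permutation p = 0.0115, adjusted p = 0.0518, and 0.1 for rho), and 0.50 without 4-HPAA replicate 3. Cebpa, the factor of highest GC content at 61.0%, had r = 0.59 and −0.08 without that library (rho = 0.11, permutation p = 0.149, adjusted p = 0.268). Removal of the GC trend from each library left the 9 differences at 0.21 for Hnf4a, 0.23 for Foxa1, −0.17 for Foxa2, 0.21 for Foxa3, 0.044 for Cebpa, 0.11 for Prox1, 0.028 for Nr5a2, 0.092 for Nr1h3 and −0.18 for Ppara.

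The genes whose liver-to-liver pattern was most like each factor were taken by highest r among 9355 genes with a mean of at least 100, as a description. Pip4p1, which encodes a lysosomal phosphoinositide phosphatase, and Mcrs1 had r = 0.98 with Cebpa. For Hnf4a the most alike were Ubr2, a ubiquitin ligase gene (0.96), Diexf (0.93) and Brpf3 (0.92). Foxa2 was most like Cish, a feedback inhibitor of cytokine signalling (0.95), and Tlr3, a sensor of double-stranded RNA (0.95). Nr5a2 was most like Nudt12 (0.97), Abhd17c (0.93) and Rora, a nuclear receptor of the clock (0.91), and Nr1h3 like Gpatch3 (0.96) and Bcl7b (0.95). The remaining tops were Cct8 for Foxa3 (0.94), Upf3b for Foxa1 (0.93), Zfp39 for Ppara (0.91) and Larp1b for Prox1 (0.88). Prox1 had 8 genes at r above 0.8, the fewest, and Foxa1 had 351, the most. Below −0.8 Prox1 also had the fewest, 8, and Nr1h3 had the most, 736. These r were not recomputed without 4-HPAA replicate 3, and the part of that library in them was not tested.

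No partner factor of the same network passed the adjusted threshold either, nor did any other gene tested. Of 42 listed hepatic transcription factors 38 were tested (Rxra, Xbp1, Esrra and Cux2 were not), with 13 higher, 25 lower and a median of −0.064, which was −0.026 without 4-HPAA replicate 3, −0.022 without replicate 5 and −0.117 without replicate 6 of that group. An unadjusted p under 0.05 was reached by 2 of them as higher (7.26% of all genes) and by 0 as lower (7.56%). Over all genes this split was 924 higher and 962 lower, but 669 and 1119 with each library divided by its total, 619 and 1238 when the 100 genes of highest mean were left out of that total, and 684 and 1131 with upper quartiles. Among the partner factors Tbx3 differed by 0.51 ± 0.22 (limma, unadjusted p = 0.0362, adjusted p = 0.302). Of 19 coregulators, the proteins that nuclear receptors recruit, 13 were higher and 6 lower with a median of 0.023 (0.105 without 4-HPAA replicate 3, −0.007 with each library divided by its total, −0.017 without the 100 highest genes and −0.001 with upper quartiles), and 0 had an unadjusted p under 0.05. Ncoa1, a coactivator gene, stood at 0.15 ± 0.08 (limma, unadjusted p = 0.101, adjusted p = 0.434).

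**Figure D4:**
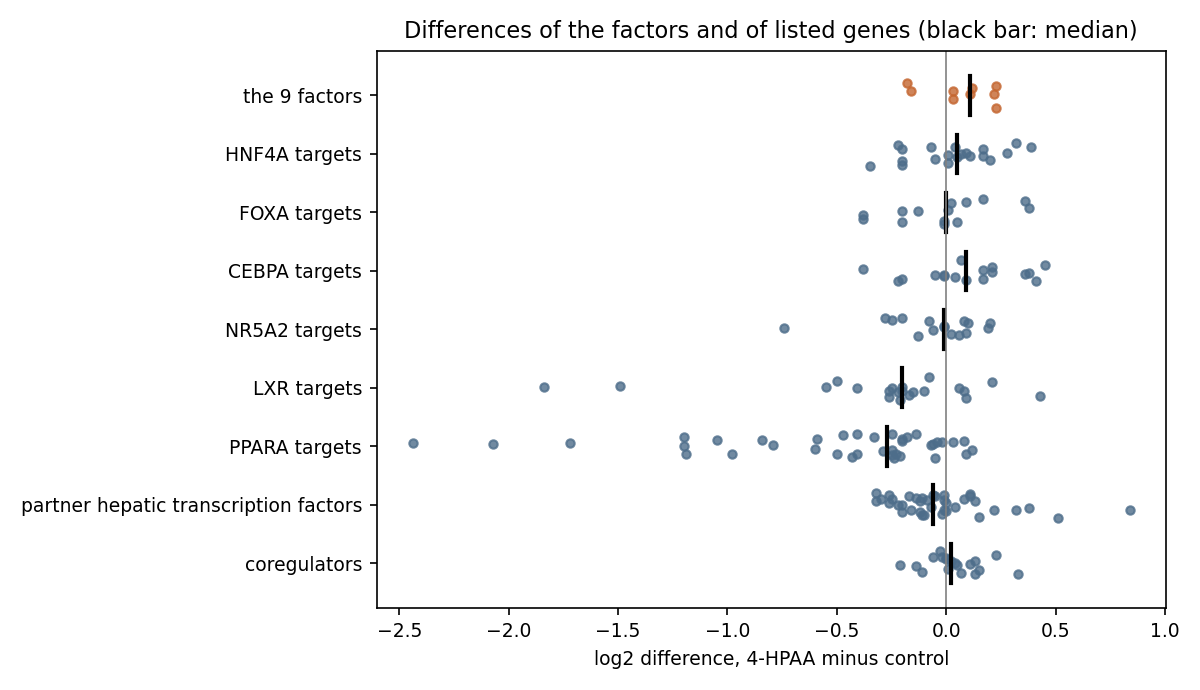
Log2 differences (x axis, 4-HPAA minus control) of the 9 factors and of each gene in the lists of their targets, partners and coregulators, 1 point per gene, with the median as a black bar. Medians lie between −0.27 for PPARA targets and 0.11 for the factors, and the long left tails belong to PPARA and LXR targets.

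Textbook targets of the lineage factors were split in direction. Of 20 HNF4A targets 13 were higher and 7 lower, and those with an unadjusted p under 0.05 were 3 higher and 2 lower (of all genes, 7.26% and 7.56%). Their median of 0.045 ran from 0.009 without control replicate 5 to 0.093 without 4-HPAA replicate 3. Ces3a, a carboxylesterase gene, stood at 0.39 ± 0.11 and the clotting factor gene F7 at 0.28 ± 0.09, while Apoa2, an apolipoprotein of HDL, stood at −0.35 ± 0.14. Of 14 FOXA targets tested (17 listed; Cdx2, Shbg and Tf were not tested) 7 were higher and 7 lower, with a median of −0.00. Alb, the albumin gene, stood at −0.38 ± 0.10 (limma, unadjusted p = 0.00156, adjusted p = 0.148) and Cps1, the first enzyme of the urea cycle, at 0.36 ± 0.17. Of 17 CEBPA targets 11 were higher and 6 lower, with an unadjusted p under 0.05 for 3 higher and 1 lower, among them Hp, the haptoglobin gene, at 0.41 ± 0.14. The median of 0.085 rested on single libraries: it was −0.003 when 4-HPAA replicate 1 was left out and 0.184 for replicate 3 of that group. It was 0.186 and 0.164 when control replicates 1 and 6 were left out in turn. Hp is also one of 30 acute phase genes, of which 26 were higher (median 0.51) and 22 were higher at an unadjusted p under 0.05 (7.26% of all genes). Of 16 NR5A2 targets tested (Cetp was not) 7 were higher and 9 lower (median −0.01), and only Abcc3, a bile acid and glucuronide exporter, had an unadjusted p under 0.05, at −0.74 ± 0.21. The lists share genes, for example Alb, Cps1 and Ttr in both the FOXA and the CEBPA list.

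Targets of both lipid-sensing receptors stood mostly lower, while the receptors' own differences were 0.11 and −0.16. Of 21 LXR targets 5 were higher and 16 lower (median −0.20; 50.2% of all genes were lower), with an unadjusted p under 0.05 for 1 higher and 6 lower (7.26% and 7.56% of all genes). Pltp, which transfers phospholipids between lipoproteins, ran from 447 through 1122.5 to 1475 in controls and from 190 through 264 to 483 with 4-HPAA. Its difference was −1.84 ± 0.28 (limma, unadjusted p = 1.82e-05, adjusted p = 0.0809). Scd1, a fatty acid desaturase gene, stood at −1.49 ± 0.40. Mlxipl, which encodes the glucose-sensing factor ChREBP, went the other way at 0.43 ± 0.12, and the sterol transporters of the same list stood at 0.06 for Abca1, 0.08 for Abcg5, −0.08 for Abcg8 and −0.10 for Abcg1. These 4 were named after their values were seen.

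Of 38 PPARA targets 4 were higher and 34 lower (median −0.27), and 24 had an unadjusted p under 0.05, all lower (7.56% of all genes). Pex11a, a gene of peroxisome division, ran from 3058 through 5353 to 5967 in controls and from 2445 through 3305 to 4159 with 4-HPAA. Its difference was −0.60 ± 0.17 (limma, unadjusted p = 0.00362, adjusted p = 0.183). Fgf21, a fasting hormone gene, stood at −1.72 ± 0.53, Cd36, a fatty acid transporter gene, at −1.19 ± 0.38, and Fabp1 at −0.41 ± 0.14. The count of 24 was 13 to 15 without any 1 of control replicates 1 to 4 or 4-HPAA replicates 1, 2 and 5. Against the control mean, the mean log2 value of the targets was −1.05, −0.86 and −0.68 in these treated replicates, which are also the shallowest libraries. It was −0.36, −0.13 and −0.01 in 4-HPAA replicates 3, 4 and 6, and −0.55 in control replicate 6. With group means kept, its r with the estimated reads was 0.88. The part of depth in the lower values was not tested. No gene of the target, partner and coregulator lists passed the adjusted threshold, nor did any other gene tested.

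Whether a factor and its listed targets vary together was asked within the groups, as the mean log2 value of the targets against the factor over 12 livers. Of 8 relations 1 passed: Cebpa against its 17 targets, with r = −0.80 and rho = −0.87 (permutation p = 0.00023 and 0.0004, adjusted p = 0.00184 and 0.0032). Livers with more Cebpa messenger had lower target levels, in controls (r = −0.79), with 4-HPAA (r = −0.92) and without 4-HPAA replicates 1 and 3, the 2 farthest (r = −0.69). Singly, 12 of the 17 targets had a negative r with Cebpa, as had 51.4% of all genes, and 7 had r below −0.5, as had 20.5% of all genes. These single values are not independent of one another. Cps1 had r = −0.69 and Hp −0.36, while Alb had 0.31 and Ass1, a urea cycle gene, 0.40. The ends of the list, F9 at −0.83 and Ttr at 0.73, were named after their values were seen. Both sides of this relation moved with depth, with r = 0.82 for Cebpa and −0.75 for the targets (rho = −0.76, permutation p = 0.00556, adjusted p = 0.0198). It was r = −0.59 with the GC trend removed (permutation test, adjusted p = 0.0891), so it did not pass there. The part of depth and base composition in it was not tested further.

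For Ppara the relation to its targets was positive (r = 0.65, rho = 0.56, permutation p = 0.024, adjusted p = 0.0795) with values of 0.68 in controls, 0.69 with 4-HPAA and 0.53 without the 2 farthest livers. Singly, 37 of 38 targets had a positive r with Ppara, with a median of 0.58, where all genes had a median of −0.03 and 47.5% were positive. These single values are not independent of one another and restate the relation of the list mean, which did not pass. Pex11a had r = 0.74, and the single negative one was Angptl4 at −0.10, named after its value was seen. PPARA targets, like Ppara, moved with depth (r = 0.81, rho = 0.73, permutation p = 0.0066, adjusted p = 0.0198, and 0.053 for rho), with r = 0.59 without the 2 farthest. Hnf4a had r = 0.64 with its 20 targets (rho = 0.48, permutation p = 0.0398, adjusted p = 0.0795), but 0.48 without the 2 farthest livers, 0.38 without control replicate 5 and 0.30 with each library divided by its total. Of the FOXA genes, Foxa3 had r = 0.62 with the FOXA targets (rho = 0.60, permutation p = 0.0372, adjusted p = 0.0795), and 0.78 without the 2 farthest. Foxa1 had r = 0.42 (rho = 0.45) and Foxa2 −0.41 (rho = −0.52), each with adjusted p = 0.305 in the permutation test. Nr5a2 had r = −0.07 with its targets (rho = 0.20, permutation test, adjusted p = 0.869). Nr1h3 had r = −0.06 with LXR targets (rho = 0.08, permutation test, adjusted p = 0.869), made of 0.91 in controls and −0.41 with 4-HPAA, and that difference was not tested.

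**Figure D5:**
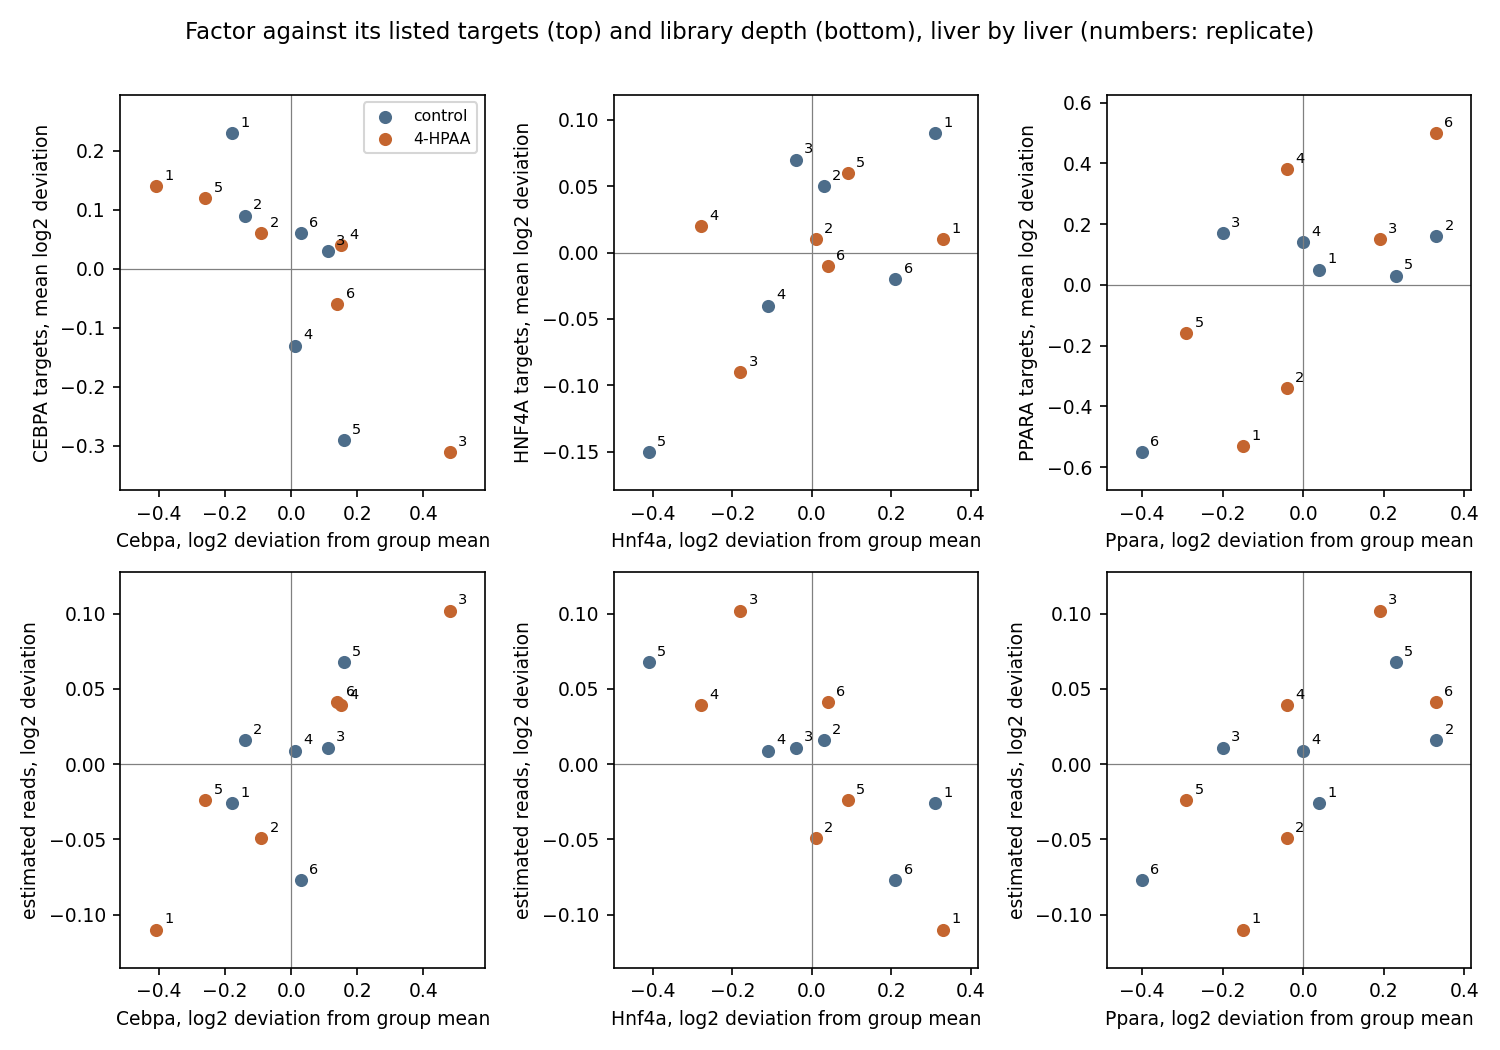
Log2 deviations from the group mean in each liver: Cebpa, Hnf4a and Ppara (x axes) against the mean of their listed targets (top row) and against the estimated reads of the library (bottom row), with replicates numbered. Cebpa and its targets run oppositely (r = −0.80), Ppara and its targets together (r = 0.65), and depth runs against Hnf4a (−0.80) and with Cebpa (0.82) and Ppara (0.67).

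Markers of other liver cells were measured beside the factors. Over all genes tested 50.2% were lower with 4-HPAA. At an unadjusted p under 0.05 (limma) 924 were higher and 962 lower, but 836 and 547 among the 9591 genes with a mean of at least 100. Lower calls were thus more frequent among genes of low value, where several of these markers lie. The part of this lean in the marker counts was not tested. Stellate cell and fibroblast markers were lower in the mean for 15 of 15 genes (median −0.51), with a summed level of 11055 to 17125 in controls and 6846 to 13103 with 4-HPAA. Of the adipocyte markers 5 of 9 were tested and 5 were lower (median −0.69), at a summed level of 1115 to 2652 in controls and 641 to 1629 with 4-HPAA. Adipoq, Lep, Plin1 and Retn of this list had no row among the deposited values, and whether the 5 tested genes come from adipocytes was not tested. Of 13 cholangiocyte and progenitor markers tested 9 were lower (median −0.27), at 3039 to 4501 and 2635 to 4688. Endothelial markers were lower for 13 of 15 genes (median −0.17), and of 10 pancreatic acinar markers 1 was tested. Of 15 T, NK and B cell markers 6 were tested and 5 were lower, 0 of them at an unadjusted p under 0.05. The other, Cd4, was higher at 1.69 ± 0.41 (limma, unadjusted p = 0.00102, adjusted p = 0.142). Cd3e, Cd3d, Cd3g, Cd8a, Nkg7, Gzma, Klrb1c, Ms4a1 and Il7r were not tested. Hepatocyte markers were higher for 14 of 19 tested genes (median 0.17; Tf was not tested), and 1 of them, Ambp, had groups that did not overlap. The part of a shift between cell types in the differences of the factors was not tested.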

How the data were processed

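Per the labels' protocols, RNA of 12 liver samples (RNeasy, quality read on a Bioanalyzer) went into strand-preserving TruSeq mRNA libraries for Illumina NovaSeq sequencing. The build GRCm38 and the tools STAR, HTSeq, cutadapt, edgeR, DESeq2 1.28.1 and FastQC 0.11.9 stand in the submitters' processing notes, without role or order. The deposited values are whole numbers that behave as read counts scaled by 1 factor per library (0.849 to 1.128, inferred from the values) and rounded by the authors, so they were handled as a score. The smallest value is 2, the table holds no other samples, and 64 of its 13267 rows stayed unnamed. The reads behind each library, 22389551 to 26924668, are its total divided by that factor.

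The 12720 genes that reached 10 in 6 or more libraries were fitted with limma 3.58.1 in R 4.3.3 (trend, robust) on log2(value + 1), a scale that understates differences of low genes, 6 against 6 samples. P-values were adjusted by Benjamini-Hochberg over all genes (threshold 0.05), and no count model was used. The script was tested on simulated data. All 30 pairs of libraries within groups differed by more than sampling noise. Correlations used values with the group mean removed and 100000 shuffles within groups (Python 3.11.15, numpy 2.4.6, scipy 1.17.1), and figures matplotlib 3.10.9. GC content is the mean over a gene's GENCODE transcripts.

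The members, lists and tests were chosen with earlier results of these data known. Named genes are the 9 members, up to 4 genes of smallest p per list, the 3 most alike genes per member and the 3 highest markers per cell type, plus those said to be named after their values were seen. Correlations with targets, acute phase genes, GC content and depth, and the removal of GC trends (lowess, span 0.3), were added after seeing the data. Alternatives were other pseudocounts (0.5 and 8), filters, scalings and sample weights, a replicate block, and each library left out. Some genes that the naming rule takes are not reported here.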

Additional observations from a re-analysis of the deposited data

How the results depend on the processing

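Over 25 alternatives per factor no adjusted p passed 0.05 for any of the 9 (limma, smallest 0.121, Foxa3 with array weights). The exact permutation test, also among them, has no adjusted p. This test, the filters, the replicate block and limma without its trend and robust settings cannot change the difference itself. Counting these, 218 of 225 values kept their sign. The other 7 belong to Cebpa (−0.006 with each library divided by its total without the 100 genes of highest mean, −0.033 with array weights, −0.060 to 0.12 with 1 library left out) and Nr5a2 (−0.008 with the same scaling, −0.024 to 0.079 with 1 library left out). Against 0 genes called over all genes, 11 were called with the replicate block, 139 with array weights and 0 to 193 with 1 library left out (5 without control replicate 1, 193 without 4-HPAA replicate 4), and the cause was not tested. The replicate numbers do not pair the samples by the labels, and same-numbered samples correlated at −0.183 to 0.282, with 5 of 12 closest to their own number. With the replicate block 0 factors passed, Hnf4a stood at 0.23 (limma, unadjusted p = 0.0467, adjusted p = 0.303), and 14 instead of 24 PPARA targets were lower at an unadjusted p under 0.05. That count was 13 to 27 with 1 library left out. Of the 36 pairs of factors 0 to 1 passed with 1 library left out (1 without 4-HPAA replicate 2). Of the 8 relations to targets 1 to 2 passed (2 without control replicate 6 or 4-HPAA replicate 3), and 0 with the GC trend removed, where Cebpa and its targets had r = −0.59. Levels per kilobase by exon union in place of the listed transcript were 133 for Cebpa, 112 for Hnf4a, 43.4 for Nr1h3, 32.4 for Ppara, 13.5 for Foxa2 and 10.1 for Nr5a2. All 216 list medians under these alternatives moved by less than 1 SD of the list's mean level between livers. Leaving out 1 of 6 livers can hardly move a median that far, so this count is a weak check. Smaller moves, some with a change of sign, are given with the lists. At the lowest listed gene values counting error is large, while the 9 factors had values of 336 and above.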

Other observations

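Among the highest hepatocyte markers, Cyp2e1 stood at 0.07 ± 0.12 and Apoa1 at −0.06 ± 0.13 on the log2 scale, beside −0.38 ± 0.10 for Alb. Dcn, the highest stellate cell marker and a matrix proteoglycan gene, averaged 4017 ± 551 in controls and 2786 ± 850 with 4-HPAA (limma, log2 difference −0.57 ± 0.17, adjusted p = 0.193). Reln averaged 1434 ± 135 and 934.8 ± 249 (limma, −0.65 ± 0.14, adjusted p = 0.135).

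None of the 9 factors passed a test of co-variation with the 30 acute phase genes over the 12 livers (permutation tests, smallest adjusted p = 0.38 for r and 0.212 for rho over 9 relations). The largest r was −0.66 for Foxa2, which was −0.49 without 4-HPAA replicate 6.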
